A study of Mus musculus with 4 samples.

Results

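The 37 genes described here act in the G2 phase of the cell cycle and in mitosis, and were chosen by a list of symbols. They are 37 of 50600 gene rows in each table, and every symbol matched exactly 1 row. The RNA came from mouse T helper 2 (Th2) cells, a helper T cell type known for type 2 cytokines such as interleukin-4. The cells were primary cells of strain C57BL/6NJ, with a linked CD4 T cell differentiation protocol, and the file headers name a time of 48 hours in a Th1 and Th2 time course. All 4 libraries carry the same labels and form 1 group of 4 biological replicates, with no allele, treatment or control arm named, and sex and age were not recorded. The labels give 1 donor identifier and a separate biosample for each library, so the spread between them may be partly technical. With 1 group there is no contrast between conditions: levels were compared between genes within a library, between the strands of a locus, and between replicates.

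A cell that has copied its DNA enters mitosis when the kinase CDK1 is switched on by its cyclins. Chromosomes are then condensed, captured by spindle microtubules at their kinetochores and held by the spindle checkpoint until every one is attached. The ubiquitin ligase APC/C next marks cyclin B and securin for destruction, the chromatids part, and the cell divides by cytokinesis. The mRNAs of these proteins are made together late in the cycle, and activated T cells divide rapidly. Their promoters are known for the cell cycle genes homology region (CHR), an element bound by the DREAM and B-MYB-MuvB complexes, and for CCAAT boxes bound by the factor NF-Y.

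Both elements were found in most members whose promoter was searched. RefSeq promoter entries (GRCm38.p6, from 250 bases before to 50 bases after a transcript start) were found for 32 of 37 members. There was no entry for Ccna2, Aurkb, Kif20a, Tpx2 and Smc4. The CHR was searched as TTTGAA and the CCAAT box as CCAAT, both on either strand. A CHR match lay in the entries of 24 of 32 members (75.0%), against 20.2% of the 27025 genes with an entry. From 100 bases before the start to 50 after it, the shares were 71.9% (23 of 32) and 9.23%. A CCAAT match was found in 26 members (81.2%) against 41.1% of all genes, and both elements in 22 members (68.8%) against 7.97%. In 98 other G2 and mitosis genes, 38 of the 79 with an entry held a CHR match (48.1%), and in 60 genes of DNA replication and S phase 9 of 50 did (18.0%). A match is a run of letters and not a shown binding site.

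CHR matches are printed here because their share exceeded that of all genes by more than the share of CCAAT boxes did. These are 16 of the 23 matches with 10 bases of the entry on both sides, chosen after their values were seen to cover all roles and to include the 2 with no CCAAT box upstream (Ndc80 and Anln), the 1 farthest from the start (Ncapd2) and the 1 farthest from its box (Ncapg). Each is 26 bases on the gene's own strand, with the match in capitals (TTCAAA where it lies on the other strand). The bases of Anln hold another match, which begins 29 bases after the start and is left in lower case.
Ccnb2 (chr9:70421535-70421560, minus strand): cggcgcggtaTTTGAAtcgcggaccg
Cdk1 (chr10:69352912-69352937, minus strand): ccgcggcgagTTTGAAactgctggca
Cks1b (chr3:89418293-89418318, minus strand): gggcggtgtgTTTGAAagcgaggcca
Plk1 (chr7:122159455-122159480, plus strand): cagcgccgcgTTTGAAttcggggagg
Aurka (chr2:172370523-172370548, minus strand): aaggagaaccTTTGAAttgtaacggc
Cdc20 (chr4:118437346-118437371, minus strand): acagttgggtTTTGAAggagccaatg
Ube2c (chr2:164769890-164769915, plus strand): agggttgcaaTTCAAAcgcgggcggc
Cenpf (chr1:189688069-189688094, minus strand): cggcgggcagTTTGAAtcgctcgtgc
Ndc80 (chr17:71526813-71526838, minus strand): aactttaaaaTTCAAAccgccttggg
Kif11 (chr19:37376353-37376378, plus strand): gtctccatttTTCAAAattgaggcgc
Kif23 (chr9:61946782-61946807, minus strand): gattggcctgTTTGAAatgcgccggg
Anln (chr9:22389170-22389195, minus strand): ggcgctgaaaTTCAAAttttgaacgg
Racgap1 (chr15:99651636-99651661, minus strand): ggtgcgtgatTTTGAAccggatctgg
Ncapd2 (chr6:125191694-125191719, minus strand): gccgttgaggTTTGAAcagggaattg
Ncapg (chr5:45669885-45669910, plus strand): gcgatagttgTTTGAAaactctggcg
Mki67 (chr7:135716462-135716487, minus strand): gccgttttggTTTGAAtcgggcgggc

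Of the 23 members whose nearest match to the start had 10 bases of the entry on both sides, 21 had it within 50 bases of the start. It began before the start in 10 of them and after it in 13. A CCAAT box lay upstream of the match in 21 of the 23, at a median of 35 bases between first bases (range 9 to 146). The entries of Ccnb1, Cks2, Bub1, Mad2l1, Cenpe, Nuf2, Birc5 and Nusap1 held no CHR match, which says only that these letters are not in this window. The whole 100 bases before the start are given for 3 members in which they overlap no annotated exon of the deposited tables, with CHR and CCAAT matches in capitals.
Top2a (chr11:99024190-99024289, minus strand): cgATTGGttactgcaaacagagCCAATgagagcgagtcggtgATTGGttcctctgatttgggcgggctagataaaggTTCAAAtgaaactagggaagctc
Kif11 (chr19:37376282-37376381, plus strand): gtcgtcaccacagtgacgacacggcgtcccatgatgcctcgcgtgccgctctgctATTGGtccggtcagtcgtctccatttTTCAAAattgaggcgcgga
Ccnb2 (chr9:70421555-70421654, minus strand): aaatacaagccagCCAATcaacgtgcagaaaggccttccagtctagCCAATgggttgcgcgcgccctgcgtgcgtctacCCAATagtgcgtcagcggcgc
Top2a held 3 CCAAT boxes and 1 CHR match in these bases and Kif11 1 of each. Ccnb2 held 3 CCAAT boxes there, and its CHR match began 5 bases into the transcript.

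**Figure D1:**
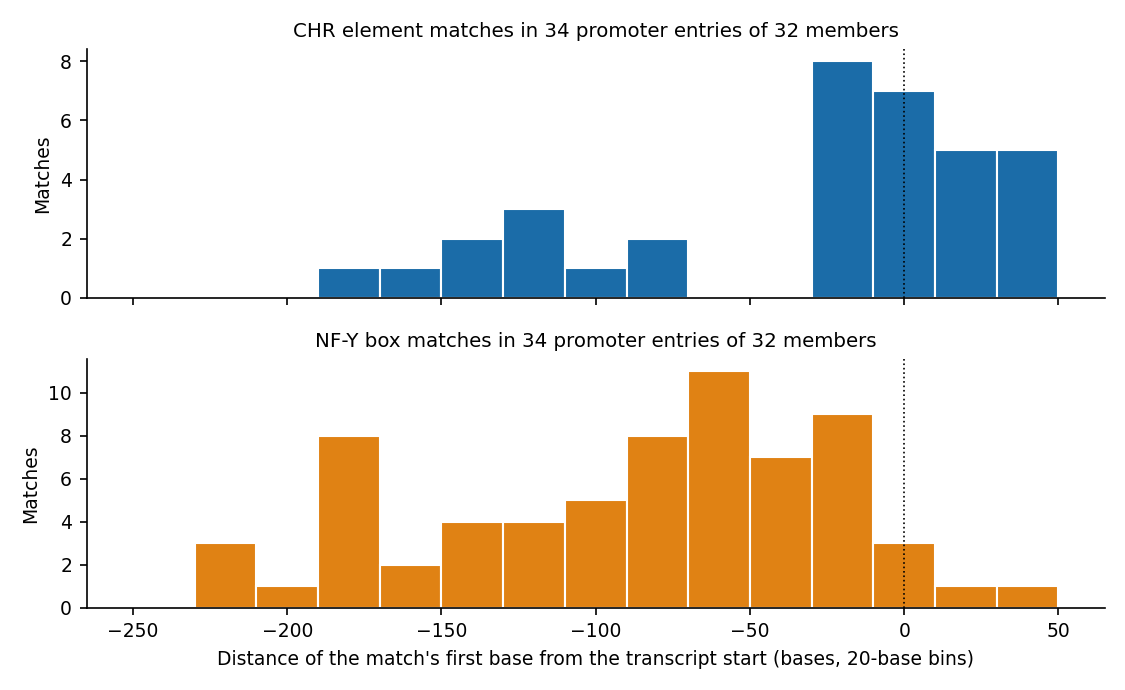
Distance in bases from the transcript start (x axis, 20-base bins) of each CHR match (upper panel) and each CCAAT match, drawn as NF-Y box (lower panel), in the 34 promoter entries of 32 members. CHR matches gather around the start, and the boxes lie mostly upstream of it.

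The tables hold counts of read pairs per gene, from 1785970 to 2271993 in a library. Levels between genes are given in TPM, each count divided by the exon length of its gene and scaled to the same total in each library. Rows whose exons share bases with a row on the other strand were 8189 of 50600 (16.2%) and held 92.5% to 94.5% of all counts. Protein-coding rows without such an overlap, 16963 of 21764, held 4.93% to 6.90%. The counting kept 1 strand, and the strand that the library keeps is not given in the sources used here. Whether counts came from a row's own transcript or from the other strand was not tested, so the levels below are those of the counted strand. They may understate a gene's mRNA, or overstate it where a row overlaps one on the other strand. Replicate 4 had 15.9% of its counts in CT010467.1 and Gm42418, rows over ribosomal RNA sequence, against 3.25% to 5.02% in the others. Replicate 3 had the smallest share of counts in protein-coding rows without such an overlap, 4.93% against 6.13% to 6.90%. Of 9 T cell markers 7 reached 1 TPM in all libraries (all but Cd3e and Cd28, summed TPM 222 to 268), and of 6 Th2 markers all 6 (99.3 to 124). The B cell gene Cd79a did as well (4.09 TPM ± 1.84), while the B cell genes Cd79b and Ms4a1 had 0 counts, which allows up to 3 in each library. Of 4 macrophage markers Csf1r, a row with an overlap, and Cd68 did (192 to 205), with Adgre1 at 0 counts and Lyz2 at 1 count in all. The 2 natural killer markers and both globin genes had 0 counts, and the erythroid gene Alas2, with an overlap, was the only one of 3 past 1 TPM (8.86 to 10.7). Of the T cell markers Cd247 (168 TPM ± 8.39) and Cd3e also have an overlap, as do the Th2 markers Ptgdr2 (59.3 ± 8.89), Stat6 and Gata3.

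Of the 37 members, 8 share exon bases with a row on the other strand, against 22.1% of protein-coding rows: Ccna2, Plk1, Cdc20, Ube2c, Kif20a, Nusap1, Prc1 and Ncapg. The other 29 have none: Ccnb1, Ccnb2, Cdk1, Cks1b, Cks2, Aurka, Aurkb, Ttk, Bub1, Bub1b, Mad2l1, Cenpa, Cenpe, Cenpf, Nuf2, Ndc80, Birc5, Kif11, Kif23, Tpx2, Hmmr, Anln, Ect2, Racgap1, Top2a, Smc2, Smc4, Ncapd2 and Mki67. The 37 genes had 4147, 3733, 3356 and 2861 counts in replicates 1 to 4. That was 0.183% (95% Wilson interval 0.177 to 0.188), 0.177% (0.171 to 0.182), 0.152% (0.147 to 0.157) and 0.160% (0.154 to 0.166) of all counts. The 8 members with an overlap held 71.3% ± 4.67 of these counts (SD, n = 4). In all libraries 28 of 37 members reached 1 TPM, against 21.8% of protein-coding rows, and 10 reached 5 TPM, against 9.65%. All 8 members with an overlap were among the 28, and 20 of the 29 without one, against 14.7% of protein-coding rows without an overlap. More than 3 counts in every library were found for 34 members, against 26.5% of protein-coding rows, the exceptions being Cks2, Aurkb and Ttk. The median TPM of the 29 members was 4.14, 3.84, 2.13 and 4.11 in replicates 1 to 4, so it was lowest in replicate 3.

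**Figure D2:**
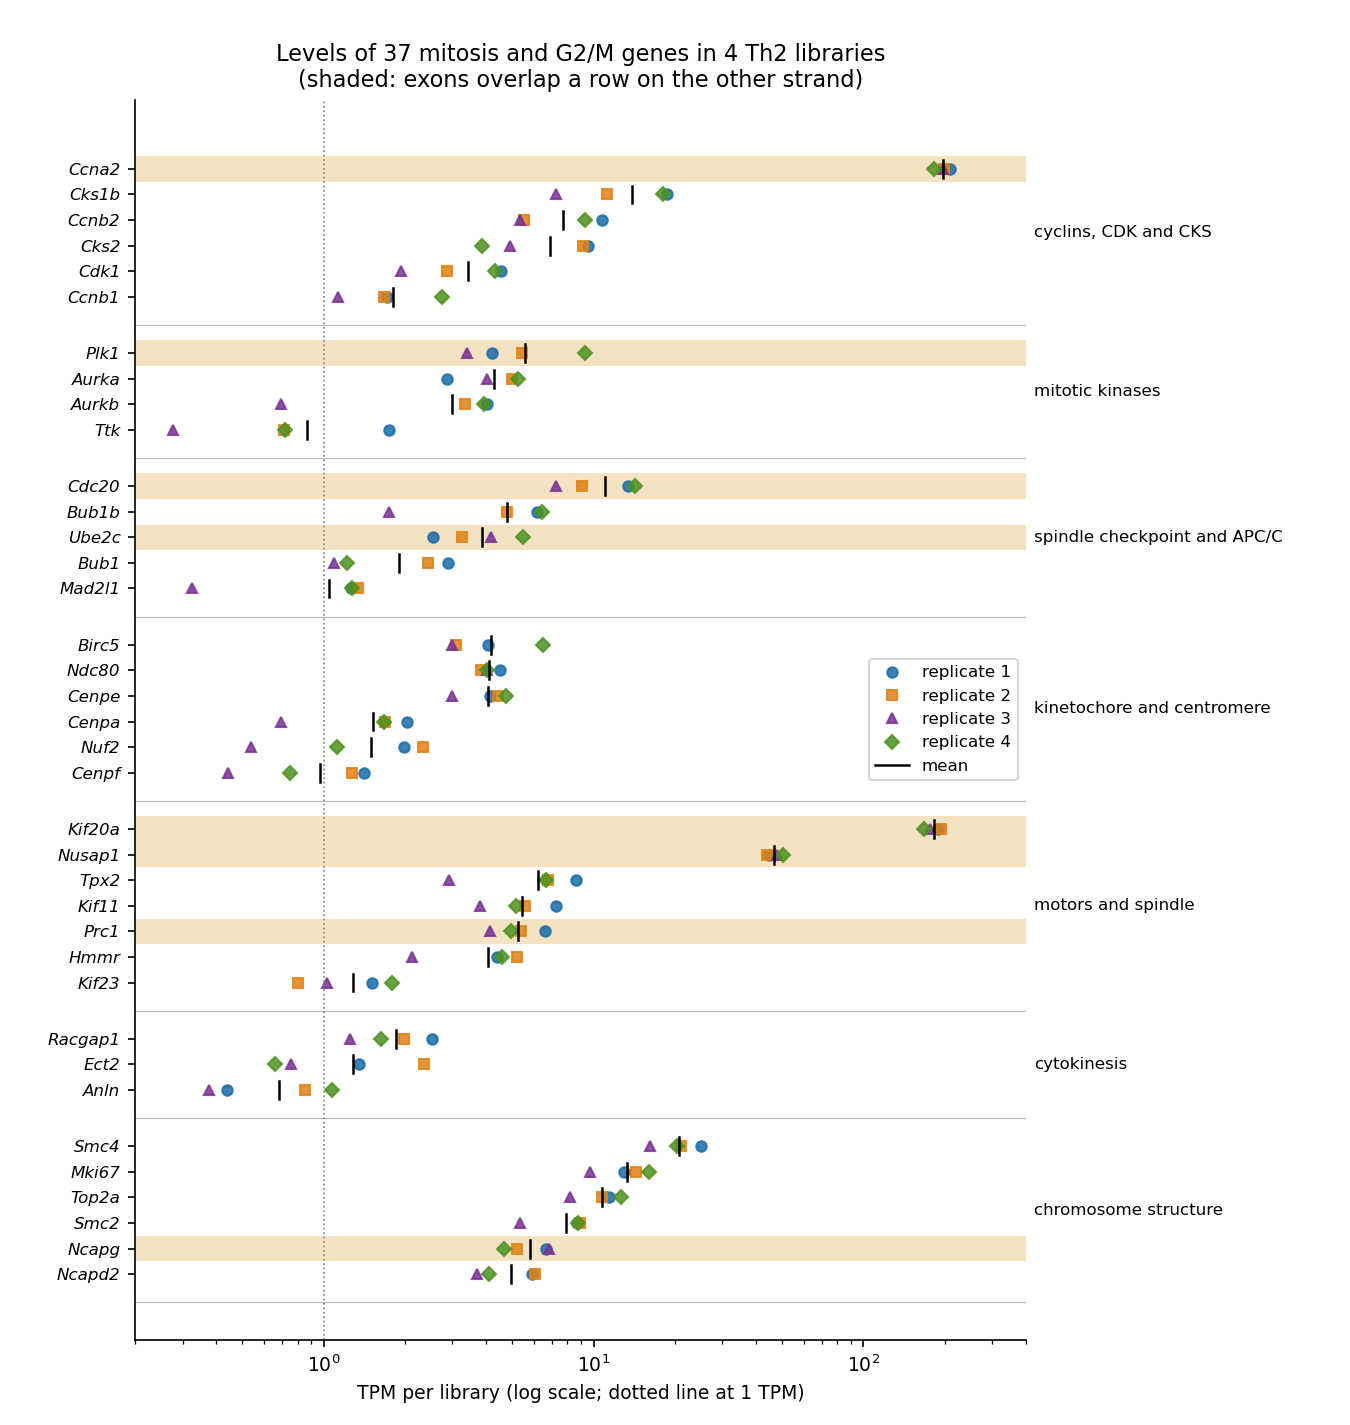
TPM of each member in each of 4 libraries (x axis, log scale), grouped by role, with a black bar at the mean and shading where the gene's exons overlap a row on the other strand. Ccna2, Kif20a and Nusap1, all shaded, stand above the 29 unshaded members, which lie between 0.686 and 20.7 TPM on average.

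Among the genes that switch mitosis on, the row of Ccna2, which encodes cyclin A2, had the most counts. Its exons overlap the denser row of Exosc9, and which strand's transcripts gave its counts was not tested. Ccna2 (ENSMUSG00000027715.9, chromosome 3, 36564865 to 36572150, mm10) had 1292, 1154, 1183 and 841 counts in replicates 1 to 4, or 197 TPM ± 10.8 (SD, n = 4). Its kinase Cdk1 (chromosome 10, 69335146 to 69352938), which has no overlap, had 34, 20, 14 and 24 counts and 3.41 TPM ± 1.24. The lowest library of Ccna2 was thus above the highest of Cdk1 on either scale. The B-type cyclins that carry the cell into mitosis had fewer counts: Ccnb1 had 11, 10, 7 and 13 (1.81 TPM ± 0.671). Ccnb2 had 25, 12, 12 and 16 (7.73 TPM ± 2.73). Its lowest library, at 5.33 TPM, was above the highest of Ccnb1, at 2.74. By counts the ranges of Ccnb1 and Ccnb2 overlapped, and Ccnb1 has 4217 bp of annotated exon against 1531 bp for Ccnb2. The CDK-binding subunits, small proteins that help CDK1 act on substrates already phosphorylated, were Cks1b with 32, 18, 12 and 23 counts (13.9 TPM ± 5.57) and Cks2 with 10, 9, 5 and 3 (6.87 TPM ± 2.91). These 2 ranges overlapped, and Cks2 in replicate 4 was at the floor of 3 counts.

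The mitotic kinases lay between 0.865 and 5.58 TPM on average. Plk1, polo-like kinase 1, which drives entry, centrosome maturation and cytokinesis, had 14, 17, 11 and 23 counts (5.58 TPM ± 2.61) on a gene with an overlap. Aurka, the spindle pole kinase Aurora A, had 11, 18, 15 and 15 (4.29 TPM ± 1.09). Aurkb, the catalytic subunit of the chromosomal passenger complex, had 18, 14, 3 and 13 (3.00 TPM ± 1.57), with replicate 3 low. Ttk, the kinase MPS1 that starts checkpoint signalling, had 13, 5, 2 and 4 counts (0.865 TPM ± 0.623), so only replicate 1 exceeded 1 TPM.

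Of the spindle checkpoint genes, Bub1b, which encodes the checkpoint subunit BUBR1, was the highest: 40, 29, 11 and 31 counts, or 4.79 TPM ± 2.15. Bub1, a kinetochore kinase, had 19, 15, 7 and 6 counts (1.91 TPM ± 0.886). Mad2l1, which encodes the checkpoint protein MAD2, had 16, 16, 4 and 12 (1.05 TPM ± 0.485). Mad2l1 has 8390 bp of annotated exon, and a gene whose transcripts use only part of its annotated exons gets a lower TPM than its counts alone would give. On the APC/C side, Cdc20, the activator that the checkpoint holds back, had 38, 24, 20 and 30 counts (11.0 TPM ± 3.38). Ube2c, the ubiquitin-conjugating enzyme of APC/C, had 10, 12, 16 and 16 (3.86 TPM ± 1.26). Both of these genes have an overlap.

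Kinetochore and centromere genes lay at 0.970 to 4.18 TPM on average, and none has an overlap. Ndc80, which encodes the subunit that holds microtubules, had the narrowest spread for its level of the 29 members without an overlap: 4.50, 3.84, 4.01 and 4.03 TPM. Its partner Nuf2 had 1.98, 2.33, 0.536 and 1.12. Birc5, the survivin subunit of the passenger complex, stood at 4.18 TPM ± 1.64 and Cenpe, a kinetochore motor, at 4.07 ± 0.757. Cenpe had 54, 54, 38 and 46 counts, the most of this group. Cenpa, the histone H3 variant that marks centromeres, stood at 1.52 ± 0.573. Cenpf, with the longest exons of the list (15433 bp), stood at 0.970 ± 0.455.

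Motors and spindle proteins held 2 of the 3 highest rows. Kif20a, the kinesin MKLP2 that moves the passenger complex to the central spindle, had 1087, 1045, 987 and 717 counts (182 TPM ± 11.9). Nusap1, a microtubule-binding spindle protein, had 275, 253, 286 and 230 (46.7 TPM ± 2.94). Both have an overlap, as does Prc1, which bundles central spindle microtubules, with 82, 63, 50 and 46 counts (5.27 TPM ± 1.02). Without an overlap were Tpx2, the activator of Aurora A, with 61, 45, 20 and 35 counts (6.24 TPM ± 2.40), and Kif11, the kinesin that pushes spindle poles apart, with 53, 38, 27 and 28 (5.45 TPM ± 1.43). Hmmr, a spindle assembly factor, stood at 4.07 TPM ± 1.34 and Kif23, the motor of centralspindlin, at 1.28 ± 0.450. Nusap1 and Kif20a kept their libraries within a narrow band, while Tpx2 ranged from 2.91 TPM in replicate 3 to 8.62 in replicate 1.

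The cytokinesis genes had the lowest median TPM of the 7 role groups among members without an overlap, on average over libraries. In replicate 3 the mitotic kinases were lower, at 0.692 against 0.757 TPM. Racgap1, the GTPase-activating partner of Kif23, had 27, 20, 13 and 13 counts (1.85 TPM ± 0.541). Ect2, the exchange factor that activates RhoA at the cell equator, had 11, 18, 6 and 4 (1.28 TPM ± 0.778). Anln, an anillin scaffold of the contractile ring, had 6, 11, 5 and 11 (0.686 TPM ± 0.337). Ect2 and Anln did not reach 1 TPM in every library.

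Genes of chromosome structure held 3 of the 4 highest levels among members without an overlap, Cks1b being the other. Smc4, an ATPase subunit of condensin, had 197, 156, 124 and 120 counts (20.7 TPM ± 3.61). Mki67, which encodes the proliferation antigen Ki-67 that coats mitotic chromosomes, had 197, 206, 144 and 182 (13.3 TPM ± 2.69). Top2a, the topoisomerase that untangles sister chromatids, had 155, 137, 108 and 128 (10.7 TPM ± 1.88). Each of these 3 genes was above 5 TPM in every library, and each had a lower TPM in replicate 3 than in the other libraries. Smc2, the other condensin ATPase, stood at 7.91 TPM ± 1.72, the condensin subunit gene Ncapd2 at 4.94 ± 1.22 and Ncapg, which has an overlap, at 5.82 ± 1.08.

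The rows opposite the 8 members mostly held more counts than the members did. The opposite row had more counts in all libraries in 6 of 8 pairs. It did so in 10 of 21 pairs of the other G2 and mitosis genes and in 14 of 23 of the S phase genes. The share over all pairs was not taken for counts. By density per exon base, the opposite row was higher in all libraries in 5 of 8 pairs. That share is close to the 62.9% of 3950 pairs of a protein-coding row and an opposite row with at least 40 counts in sum, so it is not particular to mitotic genes. Ratios are means over libraries of log2 of TPM + 1, opposite row over member, tested by an exact two-sided sign-flip test over 4 libraries with Benjamini-Hochberg adjustment over 8 pairs. With 4 libraries the smallest p is 0.13, so none could pass 0.05.

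The widest gap was at Plk1. Gm44985, a row of unsettled type inside the Plk1 gene on chromosome 7 (122167029 to 122168044), shares 156 bp with its exons. It had 1575, 1641, 1761 and 1162 counts where Plk1 had 14, 17, 11 and 23. The log2 ratio was 7.44 ± 0.602 (SD, n = 4, exact p = 0.13, adjusted 0.167). Rccd1, on chromosome 7 around the Prc1 gene, shares 911 bp with Prc1 and had 2471, 2303, 2479 and 1816 counts. The log2 ratio of Rccd1 over Prc1 was 5.07 ± 0.252 (SD, n = 4, exact p = 0.13). Lcorl, which meets Ncapg tail to tail over 944 bp on chromosome 5, had 1578, 1531, 1553 and 1151 counts and a log2 ratio of 3.07 ± 0.226 (SD, n = 4, exact p = 0.13). In these 3 pairs the opposite row was above the member in every library.

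The high counts of Ccna2 and Kif20a lay opposite rows that were higher still. Exosc9, a subunit of the RNA exosome, shares 510 bp with Ccna2 tail to tail and had 3640, 3832, 4001 and 2914 counts, a log2 ratio of 1.48 ± 0.135 (SD, n = 4, exact p = 0.13). Cdc23, itself an APC/C subunit gene, shares 1259 bp with Kif20a tail to tail on chromosome 18, which is 33.2% of the exons of Kif20a. It had 3774, 3653, 3696 and 2716 counts, a log2 ratio of 0.53 ± 0.0650 (SD, n = 4, exact p = 0.13). Both rows of each of these 2 pairs were high in every library.

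At Nusap1 the order was the reverse. Oip5, which encodes a protein that helps load CENP-A at centromeres, starts head to head with Nusap1 over 172 bp on chromosome 2 and had 19, 23, 19 and 8 counts. The log2 ratio of Oip5 over Nusap1 was -2.65 ± 0.511 (SD, n = 4, exact p = 0.13). In TPM the last 2 pairs did not keep 1 order in all libraries, although Elovl1 had more counts than Cdc20 in each. Elovl1, a fatty acid elongase gene that shares 53 bp with Cdc20, had 47, 48, 39 and 48 counts, a log2 ratio of 0.17 ± 0.292 (SD, n = 4, exact p = 0.375). Tnnc2, a skeletal muscle troponin gene with 74.0% of its exon length shared with Ube2c, had 10, 14, 7 and 4, a log2 ratio of 0.80 ± 0.877 (SD, n = 4, exact p = 0.25). Elovl1 over Cdc20 ranged from 0.09 to 0.30 with 1 library left out (replicates 2 and 1), and Tnnc2 over Ube2c from 0.52 to 1.15 (replicates 2 and 4).

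**Figure D3:**
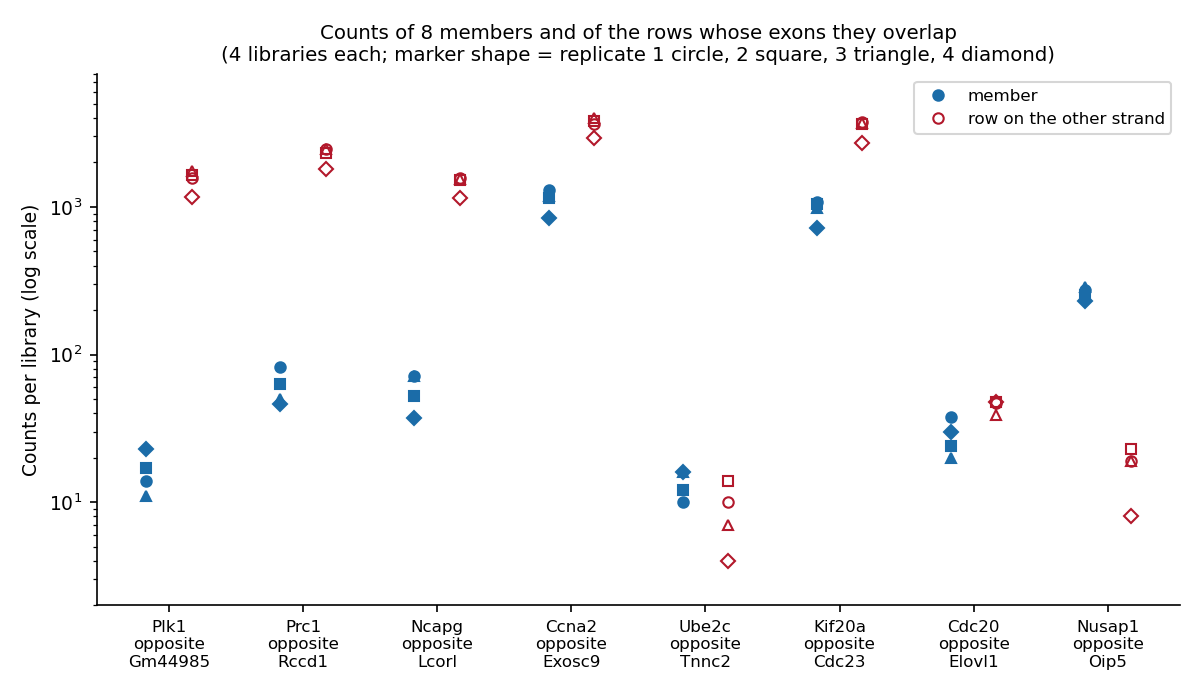
Counts per library (y axis, log scale) of the 8 members with an exon overlap (filled blue) and of the row each overlaps on the other strand (open red), with 4 libraries per gene. The opposite row is higher in every library at Plk1, Prc1, Ncapg, Ccna2, Kif20a and Cdc20, and lower at Nusap1.

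Replicate 3 held the lowest values of most members without an overlap. In TPM, 24 of the 29 were lowest in replicate 3, 2 each in replicates 2 and 4 and 1 in replicate 1. Of 3416 protein-coding rows without an overlap and with mean counts in the members' range (6 to 182), 59.5% were lowest there too. The median of log2(TPM + 1) against each gene's own mean was -0.40 in replicate 3 for the members and -0.25 for those rows, and it was above 0 for both in the other libraries. The TPM of 1 library stood apart from the other 3 by Dixon's ratio in Mad2l1 and Smc2 among the members, replicate 3 in both, and in 4.91% of protein-coding rows in the same range of counts. Scaled to the counts of protein-coding rows without an overlap, 14 of the 29 members were lowest in replicate 3, against 34.7% of the 3416 rows. The 29 members held 0.815% (95% Wilson interval 0.771 to 0.860), 0.844% (0.796 to 0.895), 0.674% (0.627 to 0.724) and 0.841% (0.789 to 0.897) of these counts in replicates 1 to 4. The interval of replicate 3 lay below the other 3, and it covers counting error only, not the spread between cultures. Of the 8 members with an overlap, 3 were lowest in replicate 3 by TPM, against 34.8% of 1877 protein-coding rows with an overlap in their range of counts. Scaled to rows without an overlap, 0 of the 8 were lowest there, against 11.3% of the same 1877 rows.

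The 2 other lists were set beside the members. The S phase genes without an overlap held 0.834%, 0.857%, 0.733% and 0.935% of the same counts in replicates 1 to 4. The other G2 and mitosis genes without an overlap held 1.56%, 1.55%, 1.53% and 1.65%, where replicate 3 was close to replicates 1 and 2. Lowest in replicate 3 by TPM were 24 of 32 S phase genes and 36 of 53 other G2 and mitosis genes in the same range of counts, or 75.0% and 67.9%, against the 59.5% of all such rows. Scaled to rows without an overlap they were 15 of 32 and 25 of 53, or 46.9% and 47.2%, against 34.7%. Replicate 3 also had the smallest share of counts in protein-coding rows without an overlap (4.93%), and the part of such a library difference in these values was not tested. In bulk RNA, fewer dividing cells and less of these mRNAs per cell cannot be told apart either.

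**Figure D4:**
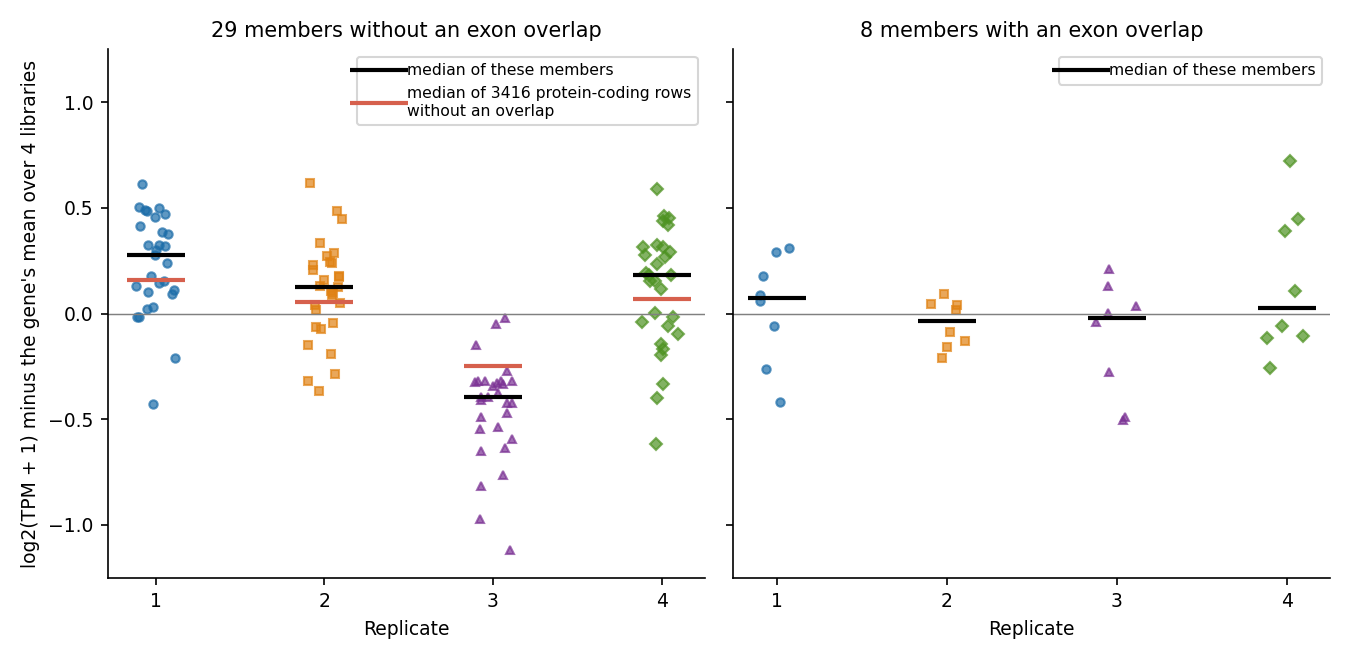
Difference of log2(TPM + 1) from the gene's mean over 4 libraries (y axis) in each replicate (x axis), 1 point per member, for 29 members without (left) and 8 with (right) an exon overlap. Black bars are medians of the members and red bars of 3416 protein-coding rows without an overlap; in replicate 3 the medians on the left are -0.40 and -0.25.

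No single member passed a test of variation between replicates. Variation was tested in edgeR by the goodness of fit of 1 mean for all libraries, fitted on 5064 rows with enough counts. Of these, 24 members were tested and 0 passed an adjusted p of 0.05 (Benjamini-Hochberg over all rows), where 0.454% of all rows did. At an unadjusted p under 0.05 there were 3 members of 24 (12.5%), against 5.13% of all rows, and with DESeq2 size factors there were 2. They were Bub1b (edgeR adjusted p = 0.509), Tpx2 (edgeR adjusted p = 0.761) and Plk1 (edgeR adjusted p = 0.955). Bub1b and Tpx2 were low in replicate 3, and Plk1 was high in replicate 4. The other 13 members did not pass the filter, which asks for a minimum in every library and so leaves out genes that are low in 1 of them: Ccnb1, Cks2, Aurkb, Ttk, Bub1, Mad2l1, Ube2c, Cenpa, Cenpf, Nuf2, Kif23, Anln and Ect2. Without the filter all 37 were tested and 0 passed in edgeR, with 3 at an unadjusted p under 0.05. The excess at an unadjusted p under 0.05 depended on the fit. In an edgeR fit of rows without an overlap it was 0 of 17 members, against 4.24% of all rows in that fit. There the unadjusted edgeR p was 0.0557 for Bub1b and 0.128 for Tpx2. Without replicate 3 it was 1 of 29 members, against 4.06%, and with a common dispersion 6 of 24, against 9.06%.

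Partners of 1 complex or pairs of related genes were set against each other within each library, as log2 ratios of TPM + 1 over 8 pairs. Smc4 was above Smc2 in 4 of 4 libraries, although their proteins pair in condensin: the log2 ratio of Smc2 over Smc4 was -1.29 ± 0.163 (SD, n = 4, exact two-sided sign-flip p = 0.13, adjusted 0.167). Ndc80 was above Nuf2 in TPM in 4 of 4, at -1.09 ± 0.501 for Nuf2 over Ndc80 (SD, n = 4, exact p = 0.13). By counts, Nuf2 (19, 21, 5 and 8) was above Ndc80 (15, 12, 13 and 10) in replicates 1 and 2. Nuf2 has 6341 bp of annotated exon and Ndc80 2201 bp, so their order depends on the exon length used. Ccnb2 was above Ccnb1 in 4 of 4, at -1.61 ± 0.357 for Ccnb1 over Ccnb2 (SD, n = 4, exact p = 0.13). By counts Ccnb2 (25, 12, 12 and 16) was also above Ccnb1 (11, 10, 7 and 13) in every library, but by less. Ccnb1 has 4217 bp of annotated exon and Ccnb2 1531 bp, so the size of their ratio depends on the exon length used. Bub1b was above Bub1 in 4 of 4, at -0.94 ± 0.571 for Bub1 over Bub1b (SD, n = 4, exact p = 0.13). In TPM each of these 4 pairs kept its order in every library. The test gives its smallest p whenever all 4 signs are alike, so the p adds nothing to that order.

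Cks1b was above Cks2 in 4 of 4 libraries, at 0.91 ± 0.761 (SD, n = 4, exact p = 0.13), from 0.27 in replicate 2 to 1.98 in replicate 4, and 0.55 without replicate 4. For the kinases, Aurka over Aurkb was 0.50 ± 0.805 and positive in 3 of 4 (exact p = 0.375). For centralspindlin, Kif23 over Racgap1 was -0.32 ± 0.363 and negative in 3 of 4 (exact p = 0.25). Both differences were smaller than their own spread. Aurka over Aurkb was 0.15 without replicate 3 and 0.80 without replicate 1, and Kif23 over Racgap1 was -0.18 without replicate 2. Ccna2 over Cdk1 was 5.53 ± 0.443 and positive in 4 of 4 (SD, n = 4, exact p = 0.13, adjusted 0.167), but the Ccna2 row has an overlap and the Cdk1 row does not.

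**Figure D5:**
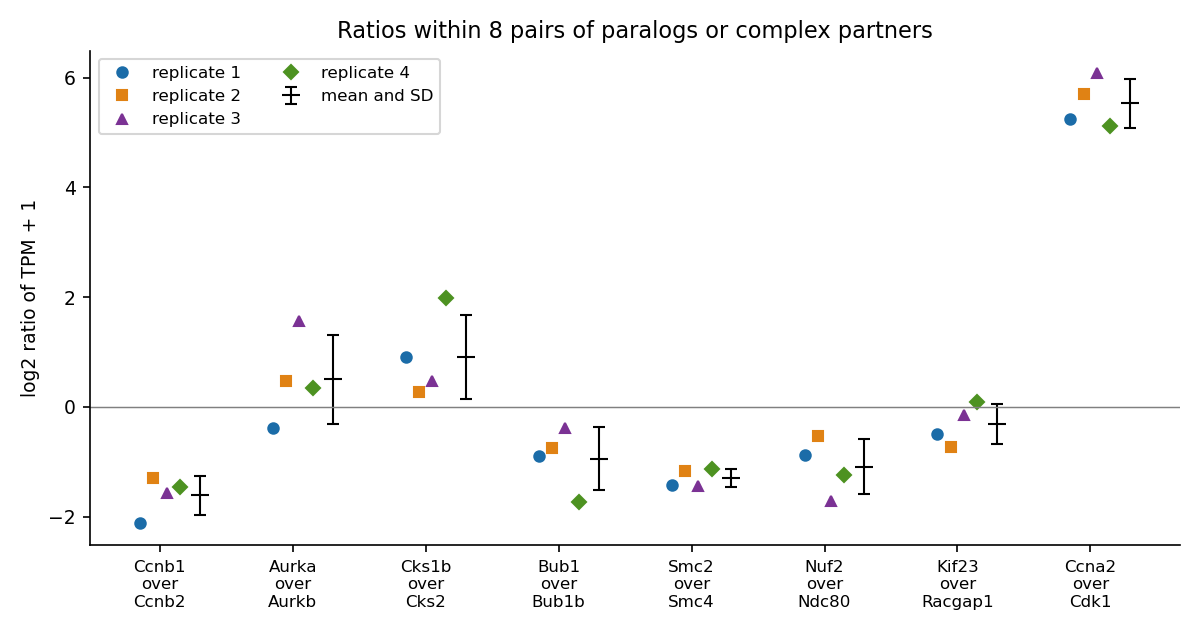
log2 ratio of TPM + 1 (y axis) in each library for 8 pairs of members (x axis), with the mean and SD in black. Ccnb2, Bub1b, Smc4 and Ndc80 lie above their partners in all 4 libraries, while Aurka over Aurkb and Kif23 over Racgap1 cross 0.

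Of the 98 other G2 and mitosis genes 20 have an overlap, 55 reached 1 TPM in all libraries and 16 reached 5 TPM. The median TPM of the 78 without an overlap was 1.69 ± 0.317 (SD, n = 4), against 3.55 ± 0.960 for the members and 2.71 ± 0.562 for 40 S phase genes without an overlap. The highest without an overlap were Hmgb2, a chromatin protein gene (135 TPM ± 11.3), the tubulin gene Tubb5 (37 ± 10.6), the passenger complex gene Incenp (32.4 ± 4.59), the centromere gene Cenpp (16.4 ± 1.95) and the cohesin gene Smc1a (13.7 ± 4.21). Hmgb2, Tubb5 and the members Cks1b and Cks2 belong to families with processed copies elsewhere in the genome, so their counts are uncertain. With an overlap, Cdc23 stood at 263 TPM ± 7.01, the condensin gene Ncaph2 at 151 ± 6.67 and the centromere gene Cenpu at 63.5 ± 7.70. Of this list 41 genes were tested in edgeR and 0 passed, where 0.454% of all rows did. At an unadjusted p under 0.05 in edgeR there were 6 (14.6%), against 5.13% of all rows, and 6 with DESeq2 size factors. In an edgeR fit of rows without an overlap it was 1 of 27 (3.7%), against 4.24% of all rows in that fit.

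Among S phase genes, the sliding clamp gene Pcna (19.8 TPM ± 5.41), the methyltransferase gene Dnmt1 (16.3 ± 2.08), the helicase gene Mcm3 (13.9 ± 2.81), the reductase gene Rrm2 (12.7 ± 4.35) and Tipin, a fork protection gene (11.0 ± 3.17), were the highest without an overlap. Gins2 (242 ± 3.40), Rfc5 (107 ± 6.42) and Ccne2 (87.4 ± 10.5) were the highest with one. The S phase list had 1 call among 30 genes tested in edgeR, against 0.454% of all rows. That gene was Hells, a chromatin remodeller (edgeR adjusted p = 0.0371). It had 77, 70, 19 and 49 counts in replicates 1 to 4, lowest in replicate 3. The list kept 1 call in edgeR with DESeq2 size factors and without CT010467.1 and Gm42418 (smallest adjusted p = 0.0394 in both). It also kept 1 with a common dispersion (smallest adjusted p in edgeR 0.00239). The call was lost without any 1 of the 4 replicates (smallest adjusted p of the list in edgeR 0.683 without replicate 3, and 0.0503, 0.0791 and 0.142 without replicates 4, 1 and 2), without the filter on low counts, and in an edgeR fit of rows without an overlap (adjusted p = 0.354).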

How the data were processed

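Total RNA of 4 Th2 libraries was sequenced, per the labels, although the linked library protocol is named for polyadenylated RNA. The deposited tables hold counts of read pairs per gene, made by the authors with featureCounts 1.4.6-p4 on exons of GENCODE vM13 (mm10) with strand setting 1 and both ends mapped, per the file headers. The alignment name holds "star2", and the sources used here do not give the aligner version. The command sets no option for pairs that map to several places.

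Symbols and types came from GENCODE vM21 by gene identifier (224 of 50600 rows unmatched). TPM used the deposited exon length, which joins the exons of all transcripts. Rows were called overlapping where exons on both strands share at least 1 base. The members and lists were chosen with earlier results of these data known.

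Replicates were compared in edgeR 4.0.16 (R 4.3.3) by the goodness of fit of a negative binomial model with 1 mean, TMM scaling, the filterByExpr filter and trended dispersion, with Benjamini-Hochberg adjustment at 0.05. DESeq2 1.42.0 gave the other size factors. Ratios within a library used log2 of TPM + 1 and exact two-sided sign-flip tests (SciPy 1.17.1), which cover these libraries only. The sign-flip p is 0.13 whenever all 4 signs are alike, whatever the spread. Promoter letters are RefSeq entries of GRCm38.p6. Totals per library ran from 1785970 to 2271993 counts, so that 3 counts, the floor for a count of 0, are 1.32 to 1.68 CPM. Wilson intervals (95%) and floors cover counting error only.

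Named were all members, the rows opposite them, the 5 highest genes without and the 3 highest with an overlap in each of the other lists, any gene of these lists past the test, the 2 rows CT010467.1 and Gm42418, and markers of T, Th2, B, macrophage, natural killer and erythroid cells, except a gene that is not reported here. Alternatives were other size factors, no filter, a common dispersion, each replicate left out, other TPM thresholds, FPKM, another pseudocount, a minimum overlap of 50 bp and, for the median level, shares and ratios, removal of the 2 ribosomal rows. Chosen after seeing the data were a fit of rows without an overlap, scaling to such rows, and removal of the 2 ribosomal rows from the edgeR fit and from the count of members lowest in replicate 3, and, for most single members' levels, FPKM and that removal.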

Additional observations from a re-analysis of the deposited data

Results flagged for a closer look

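Of 56 values checked over the 4 libraries, 3 had 1 library set apart from the other 3 by more than the critical value of Dixon's ratio, the gap over the whole range, and it was replicate 3 each time. Mad2l1 stood at 0.324 TPM in replicate 3 and at 1.26, 1.34 and 1.27 in replicates 1, 2 and 4. Smc2 stood at 5.33 TPM in replicate 3 and at 8.68, 8.87 and 8.75 in the others. The median TPM of the 29 members without an overlap was 2.13 in replicate 3 and 4.14, 3.84 and 4.11 in the others. Chance sets apart about 1 in 20 such groups, and 4.91% of 5946 protein-coding rows in the members' range of counts were set apart. Replicate 3 also had the smallest share of counts in protein-coding rows without an overlap (4.93%), and the part of this in the 3 values was not tested.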

How the results depend on the processing

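Of the values that answer a comparison, 155 stayed within 1 SD of the reported value (counts within 1.5 times) and 7 moved further. Of those of single genes 204 stayed and 18 moved, all in FPKM, whose scale differs. None changed sign. Small ratios changed by over 1.5 times within their SD. Aurka over Aurkb went from 0.50 to 0.15 without replicate 3 and to 0.80 without replicate 1. Cks1b over Cks2 went from 0.91 to 0.55 without replicate 4. Kif23 over Racgap1 went from -0.32 to -0.18 without replicate 2 and to -0.51 with a pseudocount of 0.1. Elovl1 over Cdc20 went from 0.17 to 0.30, 0.09 and 0.11 without replicates 1, 2 and 3. Tnnc2 over Ube2c went from 0.80 to 0.52 without replicate 2. Rows varying between replicates in edgeR numbered 23, but 32 with a common dispersion, 15 without the filter, 3 in a fit of rows without an overlap, and 7 to 20 with 1 replicate left out (12 without replicate 3, 7 without replicate 4). Members passing this test stayed at 0 throughout, with 0 to 6 at an unadjusted p under 0.05. Members at the threshold in all libraries fell from 28 at 1 TPM to 10 at 5 TPM, and were 28 to 32 with 1 replicate left out. The median of members without an overlap was 3.55 TPM, 2.34 in FPKM, and 3.36 to 4.03 TPM with 1 replicate left out. Members lowest in replicate 3 numbered 24 in TPM and 14 when scaled to the counts of protein-coding rows without an overlap. The cause of these shifts was not tested. No paired analysis was possible because there is 1 group. Counts of 2 to 50 per library, held by most members without an overlap, limit what can be seen of single genes.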
